A study of Mus musculus with 21 samples.

Results

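Ccl17, Ccl22 and Ccl24 encode secreted chemokines that draw T cells and eosinophils into tissue. All 3 were matched by symbol to the Entrez gene IDs of the deposited count table, where they are 3 of 27179 gene IDs, and all 3 had enough counts to be tested. They were chosen by the measured values of Ccl22, which was higher after CAWS in the cardiac macrophage population R2 and not in R3. That contrast, and every contrast of the same kind in R2 and R3, is therefore given below as values with no test. RNA came from sorted cells of C57BL/6 mice in 7 groups of 3 libraries. The cardiac macrophages were sorted by Ccr2 and MHC-II. R1 and R2 were Ccr2-negative, with low MHC-II in R1 and high MHC-II in R2, and R3 was Ccr2-positive with high MHC-II. Each was taken from the hearts of naive mice and of mice given CAWS. CAWS is a water-soluble complex of the yeast Candida albicans that gives mice a vasculitis used as a model of Kawasaki disease. Naive mice also gave the last group, Ccr2-positive monocytes of the spleen. Each treatment had 3 pools of mice, and each pool was sorted into R1, R2 and R3. For the dose of CAWS, the time after it, the age of the mice and the number per pool, the sources used here give no value.

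Ccl17 and Ccl22 are the ligands of Ccr4, a receptor of type 2 helper T cells and regulatory T cells, and dendritic cells and activated macrophages are their best known sources. In mouse macrophages and dendritic cells both are induced by interleukin-4 through Stat6 and by the growth factor GM-CSF. Ccl24, also called eotaxin-2, binds Ccr3, the main chemokine receptor of eosinophils, and is made by tissue-resident macrophages.

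Ccl22 (gene ID 20299) lies on chromosome 8 from 94745684 to 94751388 and Ccl17 (gene ID 20295) from 94809380 to 94812038, on assembly GRCm38.p6. Between them stands 1 protein-coding gene, the chemokine gene Cx3cl1, at 94772180 to 94782427. Ccl24 (gene ID 56221) lies apart from them, on chromosome 5 from 135569935 to 135573123. Upstream sequence is shown for Ccl22 and Ccl17 because they are neighbours that share a receptor and differed in their values after CAWS. It is taken from RefSeq, whose table matched 2 of the 3 genes, and the start site is the one the table uses. Positions depend on that start: GENCODE vM21 starts Ccl22 further upstream, and the RefSeq span of Ccl17 given above starts before the start site used, so its window lies inside that span. Bases that GENCODE places in an exon are left out of the first Ccl22 stretch, which therefore ends at base -95 from the start site.
Ccl22, chr8:94745434-94745589, plus strand: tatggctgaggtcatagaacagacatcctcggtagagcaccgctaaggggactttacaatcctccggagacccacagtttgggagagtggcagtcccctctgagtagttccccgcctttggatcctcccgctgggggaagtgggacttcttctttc
Ccl17, chr8:94810203-94810452, plus strand: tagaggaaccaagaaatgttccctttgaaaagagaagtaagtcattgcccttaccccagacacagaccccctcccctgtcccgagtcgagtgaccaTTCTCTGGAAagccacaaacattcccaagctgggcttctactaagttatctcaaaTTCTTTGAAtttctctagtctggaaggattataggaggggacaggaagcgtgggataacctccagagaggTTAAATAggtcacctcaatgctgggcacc
Capitals mark matches to searched letters. The form bound by Stat6, TTC and GAA with 4 bases between them, matched Ccl17 at -154 to -145 and stood in 5.85% of the 32851 upstream windows of 250 bases in the table, on either strand. The form bound by other Stat proteins, TTCNNNGAA, matched Ccl17 at -99 to -91 and stood in 7.02% of the windows. Neither matched the 250 bases before Ccl22. No match in either gene was found for an NF-kB form, GGG and TTCC with 3 bases between them (4.65% of windows), an AP-1 form, TGANTCA (6.75%), or a form bound by Irf4 with PU.1, GGAA and GAAA with 2 bases between them (2.30%). A further string of letters, TTAAATA, was seen in both after the sequences had been read, and stood in 4.18% of the windows. It lay at -30 to -24 in Ccl22 and at -29 to -23 in Ccl17, as the stretches from -40 to -11 show, and did not overlap the other matches. In Ccl22 it lies among the bases that GENCODE places in an exon.
Ccl22, chr8:94745644-94745673, plus strand: gagagagcgtTTAAATAtcagaccttcctg
Ccl17, chr8:94810413-94810442, plus strand: ctccagagaggTTAAATAggtcacctcaat

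The libraries held 12800136 to 23006155 counts each, at a median of 16763449. The RNA of the sort markers followed the labels in order: over naive R1, R2 and R3, mean Ccr2 was 6.58, 29.3 and 2389 CPM and mean H2-Aa was 678, 14610 and 16130 CPM. CPM is a gene's count scaled to a common library depth, here with TMM factors. Macrophage markers were present in all cardiac groups, with mean C1qa from 3374 to 5510 CPM against 11.1 in the monocytes. Of 10 such markers, 8 were higher and 1 lower in each naive cardiac population than in the monocytes, where 58.9% to 63.6% of all genes passed. Their sum, in which abundant genes weigh most, averaged 30690 to 40620 CPM in the cardiac groups and 51610 in the monocytes. After CAWS, Ccr2 RNA was also present in the Ccr2-negative populations, at 80.5 CPM in R1 and 231 in R2. In naive R3, replicate 2 stood apart in the summed level of 8 fibroblast and endothelial markers (198 CPM against 25.2 and 19.4), and replicate 3 in the summed level of 11 resident macrophage markers without Ccl24 (9397 CPM against 5223 and 5618).

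**Figure D1:**
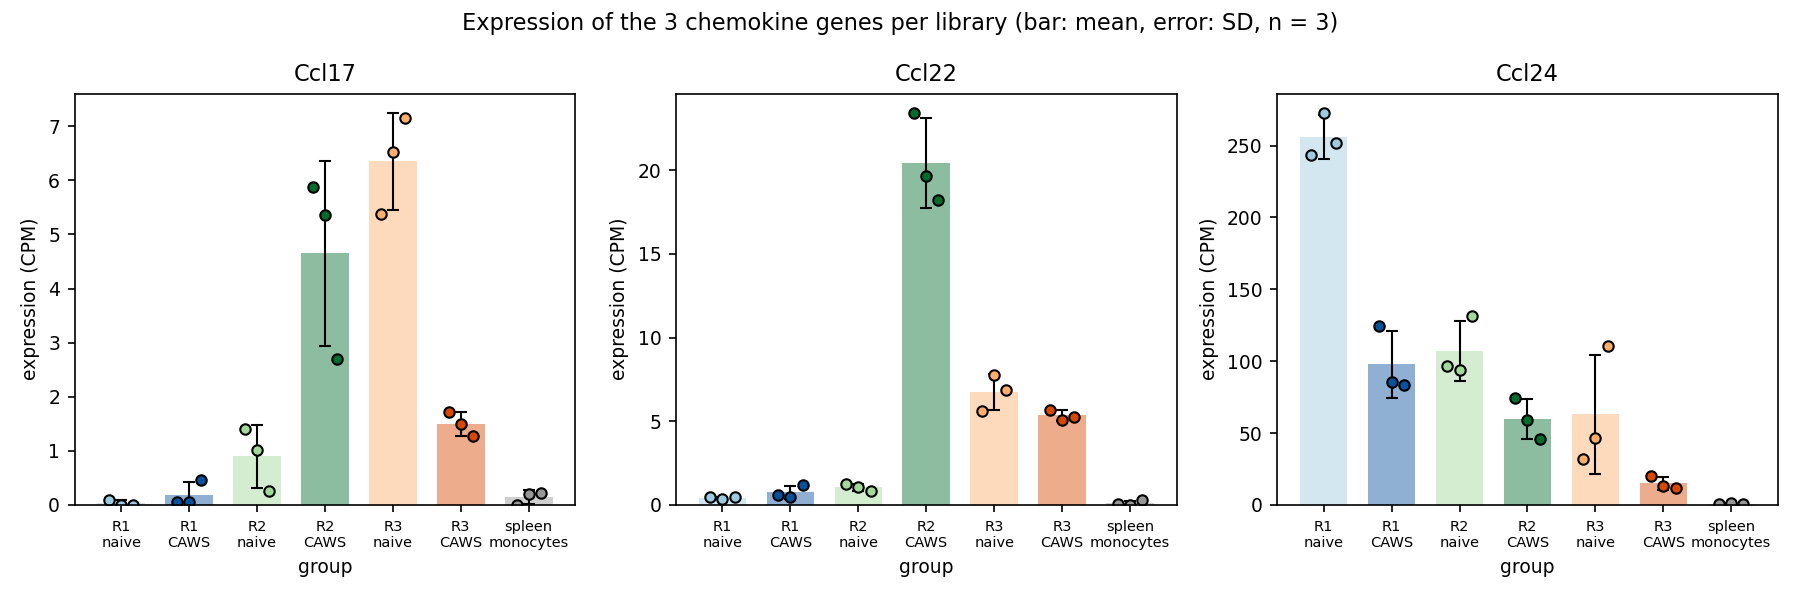
Expression of Ccl17, Ccl22 and Ccl24 in CPM (vertical axes, linear from 0) in the 7 groups (horizontal axes); points are libraries, bars are means and error lines are SD, n = 3. Ccl22 is highest in the 3 CAWS R2 libraries, Ccl17 in naive R3 and CAWS R2, and Ccl24 in naive R1.

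Ccl22 was scarce in every naive Ccr2-negative library and was the highest of its 7 groups in CAWS R2. In naive R2 the 3 libraries had 1.26, 1.08 and 0.837 CPM (28, 19 and 19 counts). In CAWS R2 they had 23.4, 19.7 and 18.2 CPM (354, 363 and 304 counts). Every CAWS R2 library thus lay above every naive R2 library, which held for 20.3% of all genes tested, and the means were 20.4 ± 2.69 and 1.06 ± 0.215 CPM (SD, n = 3), a ratio of 19.3. This contrast chose the genes and is a description. The fitted log2 fold change was 4.26 ± 0.25 (SE).

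In R3, Ccl22 was already present in naive mice and the groups overlapped. The naive R3 libraries had 5.61, 7.78 and 6.88 CPM and the CAWS R3 libraries 5.70, 5.09 and 5.27 CPM, with a log2 fold change of -0.34 ± 0.23 (SE). The difference between the CAWS effects, R3 minus R2, was -4.60 ± 0.35 on the log2 scale and is not tested, since it is the difference by which Ccl22 was picked. Within CAWS mice, every R3 library lay below every R2 library (20.7% of genes), and within naive mice every R3 library lay above every R2 library (16.7% of genes). In R1, which the choice did not use, Ccl22 did not pass the test. The naive R1 libraries had 0.445, 0.372 and 0.467 CPM (9, 6 and 7 counts) and the CAWS R1 libraries 0.578, 0.464 and 1.22 CPM (11, 8 and 24 counts). The groups overlapped and the log2 fold change was 0.83 ± 0.56 (SE; edgeR adjusted p = 0.402), where 8.94% of all genes tested passed. Replicate 3 of CAWS R1 held more counts than the other two together. The spleen monocytes had 1, 0 and 5 counts of Ccl22, and naive R1 against monocytes gave a log2 fold change of 1.72 ± 0.89 (edgeR adjusted p = 0.0915), against 63.3% of all genes passing. That comparison passed with DESeq2 (adjusted p = 0.0197) and without monocyte replicate 3 (edgeR adjusted p = 0.0356).

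In the order of its levels, Ccl22 fell into 4 steps. CAWS R2 stood alone at the top. Naive R3 (6.76 ± 1.09 CPM) and CAWS R3 (5.35 ± 0.315) overlapped with each other and with no other group. Naive R2, CAWS R1 (0.754 ± 0.406) and naive R1 (0.428 ± 0.0497) followed, each overlapping its neighbour, and the monocytes (0.115 ± 0.147) lay below all of them. These are levels in bulk samples, in which fewer cells of a type and less RNA per cell cannot be told apart.

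Ccl17 resembled Ccl22 in R2 and departed from it in R3. In naive R2 the libraries had 1.40, 1.02 and 0.264 CPM (31, 18 and 6 counts), and in CAWS R2 5.88, 5.37 and 2.69 CPM (89, 99 and 45 counts). All CAWS R2 libraries lay above all naive R2 libraries, which held for 20.3% of all genes tested, and the log2 fold change was 2.38 ± 0.40 (SE). In naive R3 the libraries had 5.38, 6.52 and 7.14 CPM (93, 114 and 108 counts), and in CAWS R3 1.72, 1.496 and 1.27 CPM (22, 20 and 19 counts). All CAWS R3 libraries lay below all naive R3 libraries, which held for 18.5% of all genes tested, and the log2 fold change was -2.09 ± 0.38 (SE). A gene that lay above in R2 and below in R3 with no overlap in either was found in 0.708% of genes tested, 94 in all. These effects in R2 and R3 are given as description, as for Ccl22, and their difference, R3 minus R2, was -4.47 ± 0.56 on the log2 scale.

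**Figure D2:**
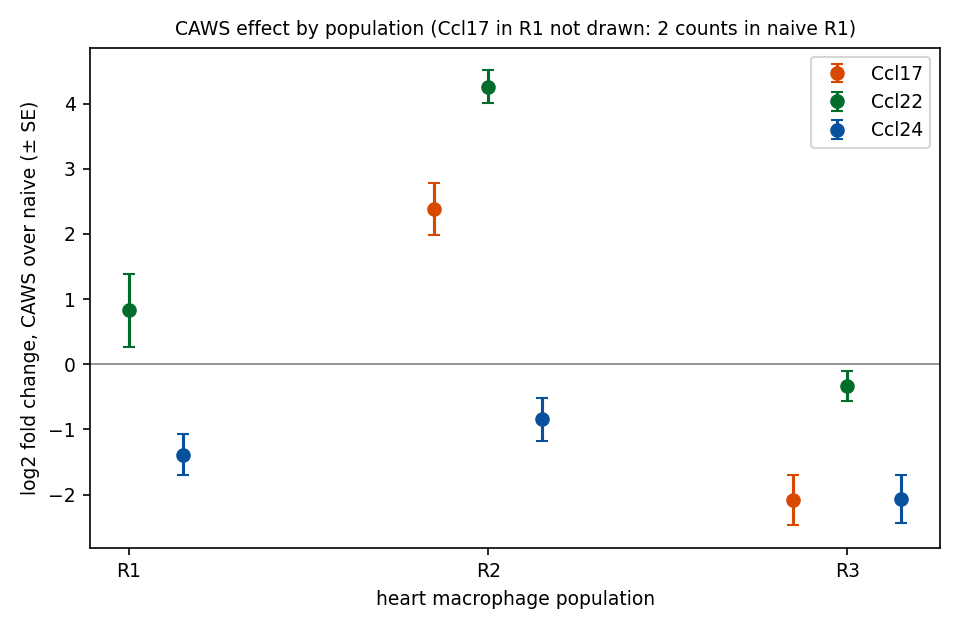
Log2 fold change of CAWS over naive libraries (vertical axis) in R1, R2 and R3 (horizontal axis); points are edgeR estimates and error lines their SE, with 3 libraries a group. Ccl17 lies at 2.38 in R2 and -2.09 in R3, Ccl22 at 4.26 and -0.34, and Ccl24 below 0 in all 3 populations; Ccl17 in R1 is not drawn because naive R1 held 2 counts.

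Ccl17 separated the 3 populations in naive mice. Naive R1 held 2, 0 and 0 counts, so its comparisons are given as ratios of summed counts per depth with an exact 95% interval that covers counting error only. All counts of naive R1 lay in replicate 1, and without it the fitted values rest on a group at 0. Naive R3 held 162 times as much as naive R1 (44.5 to 1344), and the test passed (edgeR adjusted p = 3.8e-08; 23.2% of all genes passed, and 33.8% with the pool as a block). Naive R2 held 22.6 times as much as naive R1 (5.97 to 191; edgeR adjusted p = 0.0187; 7.13% of genes, and 15.1% with the pool as a block). With limma voom it did not pass (adjusted p = 0.109), nor without naive R1 replicate 2 or 3 or naive R2 replicate 1 or 2 (edgeR adjusted p = 0.068, 0.0739, 0.125 and 0.0543). Naive R3 was higher than naive R2 by 2.83 ± 0.38 on the log2 scale (SE; edgeR adjusted p = 7.71e-06), with every R3 library above every R2 library. In that comparison 12.4% of all genes passed, and 24.0% with the pool as a block.

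After CAWS the order of R2 and R3 was turned round. CAWS R3 was lower than CAWS R2 by a log2 fold change of -1.64 ± 0.40 (SE; edgeR adjusted p = 0.00503), where 15.3% of all genes passed and 26.8% with the pool as a block. Both lay above CAWS R1, whose libraries held 1, 1 and 9 counts of Ccl17. The log2 fold change against CAWS R1 was 4.51 ± 0.57 for R2 (edgeR adjusted p = 1.3e-05; 3.77% of genes, and 10.3% with the pool as a block). For R3 against CAWS R1 it was 2.87 ± 0.76 (edgeR adjusted p = 0.00472; 29.4% of genes, and 41.4% with the pool as a block). Without CAWS R1 replicate 3 these values were 6.22 and 4.58, and both passed. In R1 itself Ccl17 did not pass between CAWS and naive (edgeR adjusted p = 0.474), with a count ratio of 5.04 (1.10 to 46.8), and 9 of the CAWS R1 counts were in replicate 3, the library that also had the most Ccl22.

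Against the spleen monocytes, which held 0, 3 and 4 counts of Ccl17, naive R3 was higher by 5.37 ± 0.59 on the log2 scale (SE; edgeR adjusted p = 1.45e-08; 58.9% of genes passed) and naive R2 by 2.54 ± 0.89 (edgeR adjusted p = 0.0148; 63.6% of genes). The R2 call was lost without naive R2 replicate 1 (edgeR adjusted p = 0.0981) and without monocyte replicate 1 (0.0743). Naive R1 and the monocytes both held too few counts for a fold (edgeR adjusted p = 0.416). In the order of its levels, naive R3 (6.35 ± 0.893 CPM) and CAWS R2 (4.65 ± 1.71) overlapped at the top and no library below reached them. CAWS R3 (1.49 ± 0.225) and naive R2 (0.896 ± 0.579) came next and overlapped, and the remaining 3 groups overlapped near 0, CAWS R1 also with naive R2. A single count was worth 0.0441 to 0.0781 CPM.

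The 2 Ccr4 ligands were compared with each other per length, as RPKM, since their gene models are 514 and 1811 bases long. In naive R3 the RPKM of Ccl17 was 3.38, 2.95 and 3.66 times that of Ccl22 in the 3 libraries. In CAWS R3 it was 1.06, 1.04 and 0.847 times. In naive R2 it was 3.90, 3.34 and 1.11 times and in CAWS R2 0.886, 0.961 and 0.522 times. The ratio was therefore lower in every CAWS library than in every naive library of the same population, in R2 and in R3, while the level of Ccl22 itself was higher with CAWS in R2 and overlapped between treatments in R3. In naive R2 replicate 3, with the ratio of 1.11, Ccl17 had 6 counts. Mean RPKM of Ccl17 was 12.4 in naive R3 and 9.04 in CAWS R2, and that of Ccl22 was 3.73 in naive R3 and 11.3 in CAWS R2. Over the 18 heart libraries the log2 CPM of the 2 genes had a Pearson correlation of 0.91, over points that share groups and pools. The ratio holds the values of Ccl22 in R2 and R3 by which the genes were chosen, so it is a description. No difference in the ratio was tested, and no share over other genes was computed for it.

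**Figure D3:**
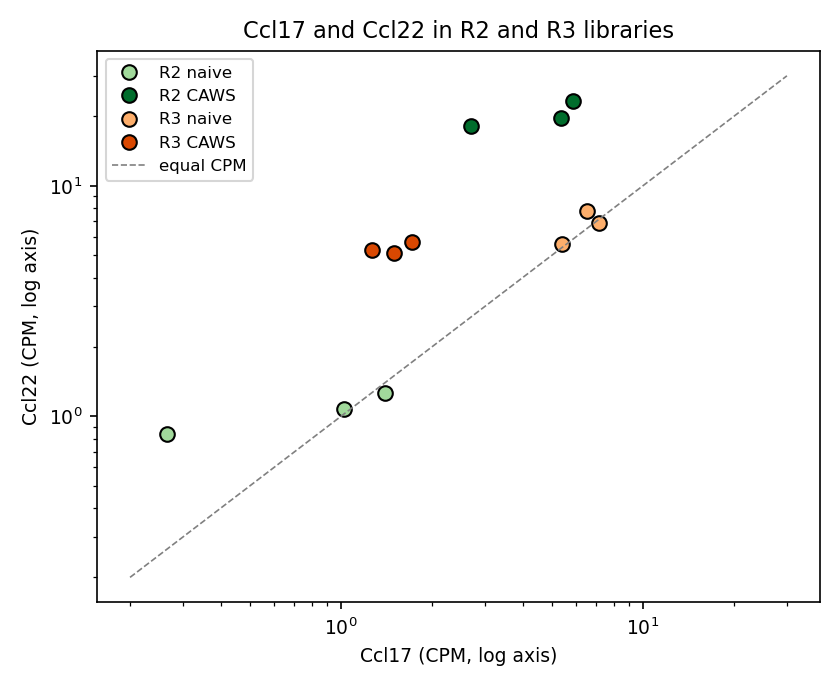
CPM of Ccl22 (vertical, log axis) against CPM of Ccl17 (horizontal, log axis) in the 12 libraries of R2 and R3; each point is a library and the dashed line marks equal CPM. CAWS R2 lies up and to the right of naive R2, while CAWS R3 lies to the left of naive R3 at about the same height.

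Ccl24 was by far the most abundant of the 3 and behaved in another way: it was highest in naive R1 and lower with CAWS. Mean RPKM in naive R1 was 198.5, against at most 12.4 for Ccl17 and 11.3 for Ccl22 in any group. In naive R1 the libraries had 243, 273 and 252 CPM (4918, 4392 and 3770 counts). In CAWS R1 they had 124, 85.4 and 83.5 CPM (2365, 1472 and 1645 counts). No libraries of the 2 groups overlapped (12.4% of genes lay below in this way), and Ccl24 fell by a log2 fold change of -1.39 ± 0.32 (SE; edgeR adjusted p = 0.0118), a change that 2.87% of all genes tested showed in the same direction. The call was lost without CAWS R1 replicate 2 (edgeR adjusted p = 0.0558) or replicate 3 (0.0533), with log2 fold changes of -1.32 and -1.29.

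In R2 and R3 Ccl24 was also lower with CAWS in every library. The naive R2 libraries had 96.7, 93.9 and 131 CPM and the CAWS R2 libraries 74.3, 59.2 and 45.9 CPM, with a log2 fold change of -0.85 ± 0.33 (SE). The naive R3 libraries had 32.2, 46.8 and 110 CPM and the CAWS R3 libraries 19.99, 13.1 and 12.01 CPM, with a log2 fold change of -2.07 ± 0.37 (SE). In both populations no CAWS library reached a naive library, which held for 16.2% of genes in R2 and 18.5% in R3. All CAWS libraries lay below all naive libraries in each of R1, R2 and R3 for 553 genes, 4.17% of those tested. The 3 CAWS effects rest on separate libraries but on shared pools, and their differences were not tested (R3 minus R2, -1.22 ± 0.49).

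In naive mice Ccl24 was higher in R1 than in the other populations. Naive R3 was lower than naive R1 by a log2 fold change of -2.03 ± 0.33 (SE; edgeR adjusted p = 0.000193; 23.2% of all genes passed), a call lost when only those 2 groups were fitted (adjusted p = 0.0506). Without naive R3 replicate 3 the value was -2.69. Naive R2 was lower than naive R1 by -1.25 ± 0.32 (edgeR adjusted p = 0.0211; 7.13% of genes passed). With no filter it did not pass (0.0628), nor without naive R1 replicate 2 or 3 or naive R2 replicate 1 or 2 (0.0636, 0.0588, 0.0983 and 0.102). Naive R3 against naive R2 did not pass, at -0.77 ± 0.32 (edgeR adjusted p = 0.14; 12.4% of genes passed). Naive R3 replicate 3, the library with the high resident macrophage markers, had 110 CPM of Ccl24, and without it the value was -1.44 (edgeR adjusted p = 0.000412). It also passed with limma voom, at -0.95 (adjusted p = 0.0462).

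After CAWS, Ccl24 was lowest in R3 among the cardiac populations. CAWS R3 was lower than CAWS R1 by -2.71 ± 0.37 (SE; edgeR adjusted p = 2.46e-05; 29.4% of all genes passed). It was lower than CAWS R2 by -2.00 ± 0.37 (edgeR adjusted p = 0.00111; 15.3% of genes). CAWS R2 against CAWS R1 gave -0.71 ± 0.33 (edgeR adjusted p = 0.332; 3.77% of genes). In the monocytes Ccl24 had 11, 22 and 8 counts. Naive R1, R2 and R3 were higher than the monocytes by 8.21 ± 0.54, 6.96 ± 0.55 and 6.19 ± 0.56 on the log2 scale (SE; edgeR adjusted p = 3.55e-10, 4.32e-09 and 4.26e-08). In these comparisons 63.3%, 63.6% and 58.9% of all genes passed. Without monocyte replicate 2 the R1 and R2 values were 8.81 and 7.55, and without naive R3 replicate 3 the R3 value was 5.52. In the order of its levels, naive R1 (256 ± 15.1 CPM) stood alone, then naive R2 (107 ± 20.9), CAWS R1 (97.8 ± 23.1), naive R3 (63.1 ± 41.5) and CAWS R2 (59.8 ± 14.2) each overlapped their neighbour. CAWS R3 (15.03 ± 4.33) and the monocytes (0.885 ± 0.549) each lay below all groups above them.

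The genes whose log2 CPM ran most like each member over the 21 libraries were different for Ccl24 than for the other two. For Ccl24 they were Lyve1, Timd4, Ltc4s, Cbr2 and Trf, with Pearson correlations from 0.9878 to 0.9941. Lyve1 and Timd4 are markers of resident cardiac macrophages, and Ltc4s makes leukotriene C4. For Ccl17 they were Epcam, Stk32c, Ccl22, Apol7c and Cd101 (0.8743 to 0.8955). For Ccl22 they included Siglecf, Tspan9, Spint1 and Ccl17 (0.8857 to 0.8995). The points share groups and pools, and the monocytes were low in all 3 members. Over the 18 heart libraries alone the closest genes were Igfbp4 for Ccl24 (0.98), Stk32c for Ccl17 (0.92) and Adam23 for Ccl22 (0.94). The choice of 5 depends on the measure: 2 of the 5 stayed for Ccl17 and 2 for Ccl24 over the heart libraries, and 1 for Ccl22. With Spearman's rho 2, 0 and 1 of the 5 stayed for Ccl17, Ccl22 and Ccl24, and over the 7 group means 1, 0 and 1.

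Lyve1, a hyaluronan receptor, fell with Ccl24 in R1. It was 1439 ± 134 CPM (SD, n = 3) in naive R1 and 527 ± 63.3 in CAWS R1, with a log2 fold change of -1.45 ± 0.31 (SE; edgeR adjusted p = 0.00732). The CPM of Ccl24 per CPM of Lyve1 was 0.167, 0.210 and 0.161 in the naive R1 libraries and 0.211, 0.185 and 0.158 in the CAWS R1 libraries, which overlapped. In R2 the ratios also overlapped, at 0.280, 0.299 and 0.273 in naive and 0.387, 0.233 and 0.269 in CAWS libraries. In naive R3 the ratio was 0.231, 0.290 and 0.272, and in CAWS R3 it was 0.698, 0.556 and 0.428. The CAWS R3 ratios did not overlap with the naive ones, and Lyve1 was lower with CAWS in R3 by a log2 fold change of -3.13 ± 0.35 (SE), beside -2.07 for Ccl24. Naive R3 replicate 3, highest in Ccl24, was highest in Lyve1 too, with 406 CPM against 140 and 161. Of the 11 other resident macrophage markers, 2 fell in CAWS R1 (Lyve1 and Timd4), against 2.87% of all genes, and 9 did not pass, with a median log2 fold change of -0.54 over the list and 0.03 over all genes. In naive R3 against naive R1, 11 of 11 were lower, against 10.7% of all genes, and in CAWS R3 against CAWS R2 also 11 of 11, against 9.76% of all genes. Their summed level ran from 20240 to 22760 CPM in naive R1 and 13290 to 17080 in CAWS R1. In R2 it ran from 10120 to 12000 in naive and 9032 to 9242 in CAWS libraries. In R3 it ran from 5223 to 9397 in naive and 3171 to 3253 in CAWS libraries. The part of resident macrophages in the values of Ccl24 was not tested.

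**Figure D4:**
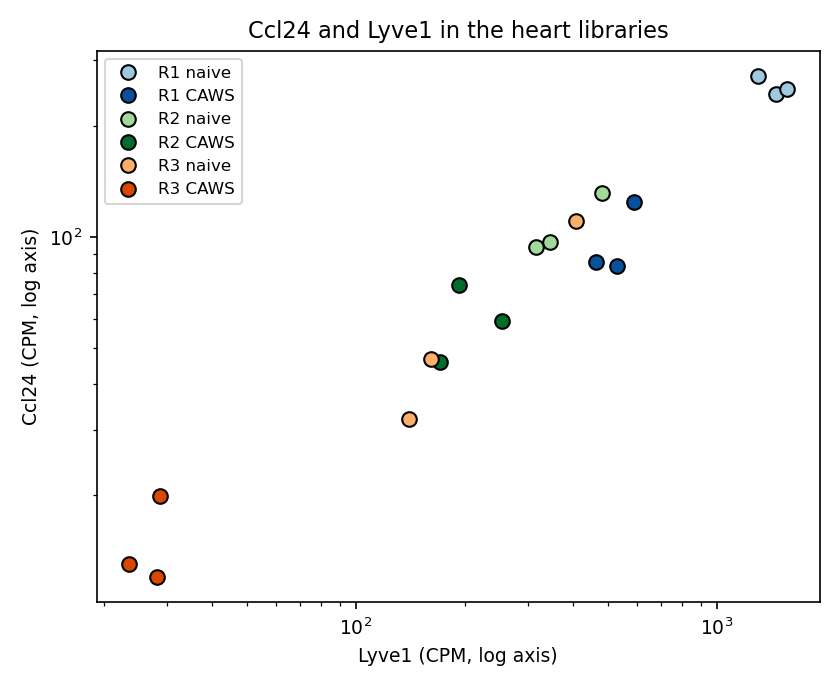
CPM of Ccl24 (vertical, log axis) against CPM of Lyve1 (horizontal, log axis) in the 18 heart libraries; each point is a library. Naive R1 lies at the top right and CAWS R3 at the bottom left, and the naive R3 library with 406 CPM of Lyve1 is the one with 110 CPM of Ccl24.

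Genes of dendritic cells were higher in the same R2 libraries as Ccl22. Flt3, the receptor for a growth factor of dendritic cells, had 3.57, 2.50 and 2.64 CPM in naive R2 and 39.5, 49.6 and 17.4 CPM in CAWS R2. Cd209a, a lectin of monocyte-derived and type 2 conventional dendritic cells, had 5.78, 5.97 and 7.71 CPM in naive R2 and 145, 206 and 69.8 CPM in CAWS R2. Kit, a growth factor receptor, averaged 0.398 ± 0.148 CPM in naive R2 and 7.59 ± 1.17 in CAWS R2 (SD, n = 3). In R3, where Ccl22 overlapped between treatments, Flt3 averaged 35.4 ± 11.3 CPM in naive and 29.1 ± 12.3 in CAWS libraries, and Cd209a 298 ± 106 and 194 ± 74.2. CAWS R2 had fewer CPM of Cd209a than naive R3 on average (140 ± 68.2) with more of Ccl22.

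Among the CAWS R1 libraries, Ccl22 was not in the same order as Flt3 and Cd209a. Replicate 3 had the most Ccl22 (1.22 CPM) and Ccl17, and the least Flt3 (1.57 CPM against 5.36 and 7.02) and Cd209a (9.90 CPM against 19.7 and 27.5). That is 1 library, with 24 counts of Ccl22, and the source of its Ccl22 was not tested. Of the 20 conventional dendritic cell markers, 9 rose in CAWS R1 and 0 fell, among them Itgax (3.46 ± 0.27) and Irf8 (0.48 ± 0.13), where 6.07% of all genes rose. The summed level of the 20 ran from 2249 to 2408 CPM in naive R2, from 2915 to 3287 in CAWS R2, from 2580 to 2922 in naive R3 and from 2892 to 3120 in CAWS R3, and none of the 20 was at 0 in those groups. In CAWS R2 against CAWS R1, 13 of the 20 were higher, against 2.46% of all genes, and 0 lower, among them Clec9a, Klri1, Itgax and Kit.

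**Figure D5:**
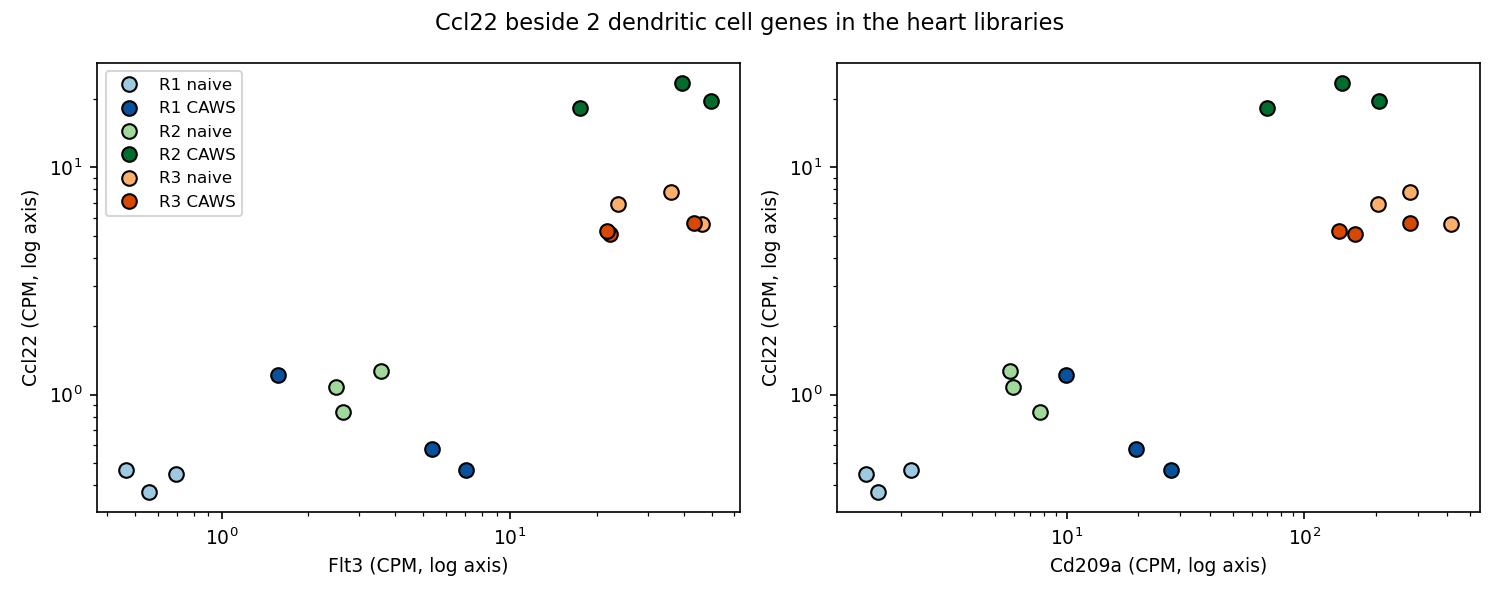
CPM of Ccl22 (vertical, log axes) against CPM of Flt3 (left) and Cd209a (right; horizontal log axes) in the 18 heart libraries; each point is a library. CAWS R2 lies above R3 at like levels of Flt3, and the CAWS R1 library highest in Ccl22 is lowest of its group in Flt3 and Cd209a.

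Markers of mature, migratory dendritic cells, in which Ccl17 and Ccl22 are known to be abundant, differed between median and sum in R2. Over the 11 genes tested the median log2 fold change with CAWS was 0.60 in R2 (0.02 over all genes) and 0.07 in R3 (-0.06). In R2, Cacnb3 stood at 2.05 ± 0.65, Cd274 at 1.43 ± 0.25 and Il4i1 at 1.19 ± 0.67. Cacnb3 and Cd274 were also higher with CAWS in R3 (2.65 ± 0.72 and 1.45 ± 0.28), while Fscn1 was lower there (-1.33 ± 0.35). The summed level over all 14 genes, in which abundant genes weigh most, was 751 to 817 CPM in naive R2 and 593 to 658 in CAWS R2, and 521 to 621 in naive R3 and 395 to 432 in CAWS R3. Ccr7, the receptor that guides these cells to lymph nodes, averaged 0.300 ± 0.411 CPM in naive R2 and 1.01 ± 0.172 in CAWS R2. In R3 it averaged 0.789 ± 0.621 and 0.125 ± 0.0945, with 1.505 CPM in naive replicate 1. Ccr7 was lower in CAWS R3 than in CAWS R2 (-2.99 ± 0.99; edgeR adjusted p = 0.0391), as was Fscn1, an actin-bundling protein of these cells (-2.35 ± 0.33; edgeR adjusted p = 2.36e-05). Samsn1, also on the list, was higher (0.73 ± 0.19; edgeR adjusted p = 0.0116). Of the 11 genes tested 1 was thus higher and 2 were lower, where 15.3% of all genes passed in either direction. In CAWS R1, 2 of 11 tested genes of the list rose, Cacnb3 and Cd274, where 6.07% of all genes rose. Classical monocyte markers were also higher with CAWS in R2, with a sum of 69.6 to 90.9 CPM in naive and 625 to 826 in CAWS libraries, and in R3, with 3235 to 3961 and 4859 to 5362. In CAWS R1, 5 of 13 monocyte markers rose, among them Ccr2 (3.62 ± 0.35), and 4 of 5 MHC class II genes, against 6.07% of all genes. The part of these cells in the values of Ccl17 and Ccl22 was not tested.

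The receptors of the 3 chemokines were nearly absent from these libraries. Ccr4 had 0 counts in all 21 libraries. Ccr3, the receptor of Ccl24, was the only one of 5 receptor genes with enough counts to test. It averaged 1.43 ± 0.615 CPM in naive R1 and 3.01 ± 1.04 in CAWS R1, and did not pass (1.11 ± 0.40; edgeR adjusted p = 0.0863). In R3, where 16.4% of genes did so, every CAWS library (3.59, 2.39 and 2.33 CPM) lay above every naive library (0.637, 0.400 and 0.463 CPM). Of the 6 eosinophil markers, Epx and Prg2, granule proteins that define the cells, were at 0 in all 3 CAWS groups, while the summed level of the 6 was higher with CAWS, with no overlap in R1 and R2 and with overlap in R3. It ran from 1.29 to 2.34 CPM in naive R1 and 3.71 to 5.84 in CAWS R1, from 2.90 to 4.05 and 7.87 to 13.2 in R2, and from 3.64 to 7.35 and 6.94 to 9.37 in R3. Siglecf, on that list, was the gene most like Ccl22 over the 21 libraries (0.90). Over the 18 heart libraries its correlation was 0.84, against 0.94 for Adam23. Siglecf was named for that likeness, so a run with Ccl22 in R2 and R3 was set by the choice. It rose in CAWS R1 (2.41 ± 0.58; edgeR adjusted p = 0.00999) and its log2 fold change with CAWS was 1.84 ± 0.27 in R2 and 0.34 ± 0.27 in R3. The part of eosinophils in the values was not tested. The T cell list of 12 genes ran from 37.2 to 43.3 CPM in naive R2 and 52.3 to 58.8 in CAWS R2, most of it Cd4. In CAWS R2, Cd3e and Ccr4 were at 0 and the other 10 had counts, and Lck and Il2ra had log2 fold changes of 1.90 ± 1.31 and 1.35 ± 0.43 in R2. In CAWS R1, 2 of 3 tested T cell genes and 3 of 4 tested NK cell genes rose, against 6.07% of all genes.

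Other ligands of the 5 receptor genes, here Ccr4, Ccr3, Ackr1, Ackr2 and Ackr4, went both ways in CAWS R1. Of 7 genes, 5 were tested, 3 rose and 2 fell, against 6.07% and 2.87% of all genes. Ccl8, a monocyte and T cell chemokine, rose by 2.27 ± 0.33 (SE; edgeR adjusted p = 0.000296), from 18.9 ± 8.78 to 89.7 ± 10.9 CPM (SD, n = 3). Ccl5 rose by 2.92 ± 0.64 (edgeR adjusted p = 0.00562) from under 1 CPM. Ccl2, also a ligand of Ccr2, fell by -1.10 ± 0.21 (edgeR adjusted p = 0.00227), and Ccl7 fell by -0.95 ± 0.21 (edgeR adjusted p = 0.00434). Ccl8 was also higher with CAWS in R2, from 6.07 ± 0.942 to 46.4 ± 3.01 CPM, and in R3, from 3.98 ± 4.40 to 10.9 ± 1.17. The eotaxin Ccl11 averaged less than 0.2 CPM in every group.

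Cx3cl1, between Ccl22 and Ccl17, was not higher with CAWS in R2. It averaged 6.65 ± 0.970 CPM in naive R2 and 4.58 ± 1.46 in CAWS R2, with a log2 fold change of -0.54 ± 0.31 (SE). In R3 it was lower with CAWS in every library, from 8.45, 7.21 and 6.75 to 2.65, 2.09 and 1.67 CPM. The same held for 18.5% of all genes tested, Ccl17 among them. In R1 Cx3cl1 did not pass (-0.29 ± 0.35; edgeR adjusted p = 0.695). Of 6 neighbours on chromosome 8, 0 passed in CAWS R1, and of 6 neighbours of Ccl24, 4 were tested and 0 passed. In that comparison 8.94% of all genes passed, and Ccl17 and Ccl22 did not pass either.

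Of the pathways known to drive Ccl17 and Ccl22, 4 genes were followed in R2 and R3. Among the other genes of the interleukin-4 pathway the larger differences were in Il2rg, the receptor chain that pairs with Il4ra, at 1.26 ± 0.11 in R2 and 0.64 ± 0.11 in R3 on the log2 scale (SE), and in Pparg, at 0.54 ± 0.20 and 0.83 ± 0.19, and in R3 also in Socs1 (1.05 ± 0.34) and Irs2 (-0.88 ± 0.25). Il4ra, the interleukin-4 receptor, averaged 259 ± 15.6 CPM in naive R2 and 272 ± 24.0 in CAWS R2 (SD, n = 3), and in R3 it differed by a log2 fold change of 0.17 ± 0.12 (SE). Stat6 averaged 276 ± 10.1 and 263 ± 17.9 in R2 and 283 ± 2.93 and 248 ± 13.8 in R3. Irf4, a transcription factor acting with Stat6 in these cells, averaged 86.9 ± 8.81 and 96.6 ± 7.83 in R2 and 111 ± 10.3 and 78.6 ± 4.65 in R3. Csf2rb, a chain of the GM-CSF receptor, averaged 139 ± 13.2 and 185 ± 8.51 in R2 and 159 ± 15.2 and 187 ± 6.28 in R3. Irf4 was lower in every CAWS R3 library than in every naive R3 library, as were 18.5% of all genes tested, Ccl17 among them. The log2 fold change of Irf4 was -0.50 ± 0.12 (SE). Csf2rb was higher on average in both populations (0.42 ± 0.14 and 0.23 ± 0.14). The RNA of the cytokines themselves was scarce: Il13 had 0 counts in the 21 libraries, Csf2 had 1 and Il4 had 38.

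In CAWS R1, where 8.94% of all genes passed, each list of these pathways held genes that passed. Of 16 genes of the interleukin-4 and interleukin-13 pathway, 14 were tested, Il2rg (0.74 ± 0.11) and Pparg (1.24 ± 0.23) rose and Klf4 (-0.84 ± 0.24) fell, with a median log2 fold change of -0.01 over the list. Il2rg is the shared cytokine receptor chain, and Pparg a nuclear receptor linked to alternative activation. Of 15 targets of interleukin-4 in mouse macrophages, 14 were tested. Il1rn (2.13 ± 0.20) and Ch25h (1.04 ± 0.26) rose, while the lectin Mgl2 (-1.47 ± 0.22) and the secreted protein Retnla (-1.37 ± 0.34) fell. Of 10 genes of the GM-CSF pathway, 9 were tested and Bhlhe40 rose (1.88 ± 0.52). Of 10 NF-kB subunits and inhibitors, all tested, Traf1 rose (1.40 ± 0.19). In naive R3 against naive R1, where Ccl17 was higher, the counts of genes higher and lower were 4 and 0, 6 and 1, 5 and 0, and 4 and 0 in the same order of lists, against 12.5% and 10.7% of all genes. Ccl17 was also higher in the next 2 comparisons. In naive R3 against R2 the counts were 3 and 0, 6 and 0, 4 and 0, and 1 and 0 (12.4% of genes passed). In naive R2 against R1 they were 2 and 1, 1 and 1, 0 and 0, and 0 and 0 (7.13%). In CAWS R3 against R2, where Ccl17 was lower, they were 1 and 0, 4 and 3, 1 and 0, and 0 and 0 (15.3%).

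In R2 the largest difference among the GM-CSF pathway genes was in Bhlhe40, a transcription factor, at 1.97 ± 0.520 CPM in naive and 29.2 ± 9.22 in CAWS libraries. In R3 Bhlhe40 was at 22.3 ± 4.67 and 25.3 ± 4.75. Of these groups its mean was lowest in naive R2 and highest in CAWS R2, as for Ccl22. The means of naive and CAWS R3 stood in the other order from those of Ccl22. Traf1 was 12.6 ± 0.975 and 33.9 ± 5.19 CPM in R2 and 20.9 ± 7.19 and 33.0 ± 0.566 in R3. Mgl2, an interleukin-4 target, was lower with CAWS, at 1199 ± 66.5 and 546 ± 84.6 CPM in R2 and 1181 ± 103 and 360 ± 127 in R3, as Ccl24 was. In R2 Mgl2 thus went the other way from Ccl22, which in R3 overlapped between treatments. Other targets were higher with CAWS: in R2 Fn1 by 3.44 ± 0.42 and Chil3 by 3.38 ± 0.86 on the log2 scale (SE), and in R3 Chil3 by 3.90 ± 0.40. Fn1 and Chil3 are also on the list of classical monocyte markers, whose sum was higher with CAWS in R2 and R3. Arg1 averaged 0 and 0.542 CPM in R2 and 0.694 and 7.02 in R3, and Pdcd1lg2 0.0379 and 1.20 in R2 and 0.378 and 2.35 in R3. The median log2 fold changes with CAWS in R2 were 0.11, 0.32, 0.41 and 0.28 for the pathway, target, GM-CSF and NF-kB lists, and 0.02 over all genes. In R3 they were -0.02, -0.20, 0.00 and -0.09, and -0.06 over all genes.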

How the data were processed

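The authors deposited raw read counts per gene that featureCounts made on mm10, per the submitters' processing notes, beside a column of gene lengths, per the file headers. Per the labels' protocols, RNA was prepared with RNeasy Plus Mini and sequenced from TruSeq RNA libraries. The aligner, annotation and strand setting were not given in the sources used here, so reads of overlapping antisense genes cannot be told apart. Symbols came from RefSeq by gene ID (25275 of 27179 matched). The combined table equalled the per-sample files for 21 of 21 libraries, and replicates differed beyond sampling noise (chi-square per degree of freedom 10.2 to 136).

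CPM and RPKM were computed on TMM-scaled totals (factors 0.9093 to 1.065), and 13275 genes passed filterByExpr (minimum count 10, minimum total 15). Tests were edgeR 4.0.16's quasi-likelihood test in R 4.3.3, two-sided, over all 21 libraries with 1 mean per group (14 residual degrees of freedom), with Benjamini-Hochberg adjustment over all genes and a threshold of 0.05. Ccl17 and Ccl24 were tested in 10 comparisons and Ccl22 in 2. The test was checked on simulated counts. Correlations used log2 CPM with a prior count of 2. Alternatives were DESeq2 1.42.0, RLE scaling, limma 3.58.1 voom, no filter and a stricter filter, only the groups compared, the replicate number and the pool as blocks, and each library left out in turn; the heart-only correlations were added after seeing the data.

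The members and gene lists were chosen with earlier results of these data known. The text names the 3 members, 7 set genes, the 5 genes most like each member and up to 4 genes of a list; 1 gene under this rule is not reported here. Genes outside this rule that are named for a receptor, a cell type or a sort marker were chosen after their values were seen. Pools come from the series design: within a treatment, same-numbered libraries deviated from their group means together (18 correlations, 0.151 to 0.638, over 7064 genes), but not across treatments (-0.271 to 0.263) or with monocytes (-0.13 to 0.373). The pool was therefore read as a block within a treatment only.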

Additional observations from a re-analysis of the deposited data

Results flagged for a closer look

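Ccl17 stood at a log2 fold change of 2.38 with CAWS in R2 and -2.09 in R3. Every CAWS library lay above every naive library in R2 and below it in R3, which held for 0.708% of genes tested. The difference between the 2 effects was not tested, because the genes were chosen on this contrast.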

How the results depend on the processing

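For 22 comparisons of the members, 292 alternative values were computed: 273 kept direction and side of the threshold, 15 lost the call, 4 gained it and 0 changed direction. Ccl17 in naive R2 against R1 lost it with limma voom (3.64), Ccl24 in naive R2 against R1 with no filter (-1.23) and Ccl24 in naive R3 against R1 with only those groups fitted (-2.05). Ccl22 in naive R1 against monocytes gained it with DESeq2 (1.78) and Ccl24 in naive R3 against R2 with voom (-0.95). The cause was not tested. Leaving out each library in turn gave log2 fold changes of 3.71 to 6.91 for Ccl17 in naive R2 against R1, 1.97 to 3.03 for Ccl17 in naive R2 against monocytes and 1.24 to 3.41 for Ccl22 in naive R1 against monocytes. For Ccl24 it gave -1.61 to -1.29 in CAWS R1, -1.42 to -1.18 in naive R2 against R1 and -1.44 to -0.46 in naive R3 against R2. The pool as a replicate block changed no call of a member but raised the genes past the threshold from 946 to 1989 in naive R2 against R1, 1646 to 3153 in naive R3 against R2, 501 to 1353 in CAWS R2 against R1 and 2027 to 3532 in CAWS R3 against R2. With only the groups compared, 1531 genes passed in naive R2 against R1 and 794 in CAWS R2 against R1, and with voom 790 in CAWS R2 against R1 and 3939 in CAWS R3 against R2. Without a single library, counts fell from 1187 to as few as 673 in CAWS R1 (without CAWS R1 replicate 2), 588 in naive R2 against R1, 1060 in naive R3 against R2, 227 in CAWS R2 against R1 and 1236 in CAWS R3 against R2. Depth limits Ccl17 in R1 and the monocytes, where groups held few counts.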
